A study of Mus musculus with 4 samples.

Results

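The imprinted Dlk1-Dio3 locus on mouse chromosome 12 carries 3 long non-coding RNA genes, Meg3, Rian and Mirg, together with a dense array of miRNA and small nucleolar RNA genes. Its members were the plus-strand regions of the deposited cluster lists whose midpoint lay in a fixed window of mm10 that runs from just before the start of Meg3 to just past the end of Mirg. It holds Meg3 (ENSMUSG00000021268.17, 109541001 to 109571726), Rian (ENSMUSG00000097451.10, 109603940 to 109661716) and Mirg (ENSMUSG00000097391.8, 109729764 to 109749460). Each region was assigned to a GENCODE gene by overlap on the same strand, with miRNA and small nucleolar RNA genes taken first. The window held 177 of the 46860 clusters called in wild-type brain, 210 of the 86106 called in knockout-labelled brain, and 177 of the 46862 regions of the table in which the authors set the 2 AGO2 immunoprecipitates against each other.

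By eCLIP, the study crosslinked the Argonaute protein AGO2 to RNA and immunoprecipitated it. The tissue was whole brain, taken at postnatal day 0 from mice of the C57BL/6 strain. One genotype is labelled wild type and the other FMR1 ko, where Fmr1 is the gene for the RNA-binding protein FMRP. The allele and the number of animals behind a library are not given in the labels. Each genotype had 1 immunoprecipitate (IP) and 1 input library, so no test across libraries was possible, and what differs below differs between single libraries. The library labelled FMR1 ko is called knockout-labelled here, because Fmr1 itself had clusters in both IPs, 2 in wild type and 5 in the other, none of them enriched over input.

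Read counts were recovered from the deposited scores. Depths relative to the IP of the same pair were 6.34 for the wild-type input and 1.92 for the knockout-labelled input, and the knockout-labelled IP had 2.28 times the depth of the other IP. Clusters held a median of 4 reads in each IP. The tissue label was checked against marker genes: 7 of 7 neuronal and 5 of 5 progenitor genes had clusters in both IPs, against 1 of 6 genes of other organs in each (Alb in wild type, Ttn in the other). Intervals are exact (Clopper-Pearson) 95% binomial intervals and cover counting error only.

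In imprinted domains, genes are expressed from 1 parental copy. Here the non-coding RNAs come from the maternal chromosome, and the protein-coding genes Dlk1, Rtl1 and Dio3 from the paternal one. The miRNA hairpins are cut from the long transcripts, each yields a 5p and a 3p arm, and the arm that AGO2 retains pairs with target RNAs through its seed, bases 2 to 8. The locus is known as a source of many brain miRNAs, and those made opposite Rtl1 are fully complementary to the Rtl1 mRNA.

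The mature sequences on which the results turn are given from RefSeq (GRCm38.p6), 5′ to 3′, with the seed in capitals. RefSeq hairpins matched 54 of the 59 annotated miRNA genes of the locus, and all 106 mature sequences were equal to the genome at their position. The first set holds, for each gene, the arm with the most AGO2 reads. Its genes are those with regions opposite Rtl1 and the 5 highest by wild-type log2 in the array at Mirg.
miR-434-3p: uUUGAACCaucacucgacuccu
miR-127-3p: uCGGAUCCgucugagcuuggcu
miR-136-5p: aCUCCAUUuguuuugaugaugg
miR-433-3p: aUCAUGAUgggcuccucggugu
miR-431-5p: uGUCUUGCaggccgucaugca
miR-300-3p: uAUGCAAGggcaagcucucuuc
miR-381-3p: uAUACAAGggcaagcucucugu
miR-495-3p: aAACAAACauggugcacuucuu
miR-154-5p: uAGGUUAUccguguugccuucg
miR-539-5p: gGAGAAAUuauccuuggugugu
Of these, miR-300-3p and miR-381-3p differ at 3 of 22 positions, and their seeds are not the same.

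The second set holds the leading arms near Meg3 and within Rian, the 3 lowest of the Mirg array by wild-type enrichment, and both arms of Mir668, the hairpin whose arms were used differently in the 2 libraries.
miR-665-3p: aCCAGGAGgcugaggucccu
miR-337-3p: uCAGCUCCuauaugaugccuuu
miR-770-5p: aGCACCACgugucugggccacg
miR-540-5p: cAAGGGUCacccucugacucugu
miR-673-5p: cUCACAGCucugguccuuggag
miR-493-5p: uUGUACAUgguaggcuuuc
miR-370-3p: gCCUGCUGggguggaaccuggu
miR-341-3p: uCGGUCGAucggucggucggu
miR-494-3p: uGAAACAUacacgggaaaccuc
miR-1193-3p: uAGGUCACccguuuuacuauc
miR-3072-3p: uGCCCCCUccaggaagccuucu
miR-668-5p: gUAAGUGUgccucgggugagcaug
miR-668-3p: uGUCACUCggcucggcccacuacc

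A further set shows seeds shared within the locus where at least 1 member had AGO2 reads. The locus has 97 distinct seeds, of which 9 belong to 2 mature sequences each. The seed AGGUCAC is carried by miR-1193-3p, shown above, and by miR-370-5p, and the other pairs follow.
miR-370-5p: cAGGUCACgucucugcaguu
miR-379-3p: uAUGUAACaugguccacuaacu
miR-411-3p: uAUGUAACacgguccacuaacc
miR-379-5p: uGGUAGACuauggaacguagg
miR-1193-5p: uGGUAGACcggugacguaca
miR-376b-5p: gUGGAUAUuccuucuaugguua
miR-376c-5p: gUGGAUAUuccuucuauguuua
These pairs held few reads. The highest summed count was 49 wild-type reads for the seed GGUAGAC, all on miR-379-5p, since miR-1193-5p had no region. The 2 sequences with the seed UGGAUAU differ at 1 of 22 positions, and only the copy at Mir376b had regions, 24 wild-type and 21 knockout-labelled reads. How the authors placed reads that match near-identical copies is not given in the sources used here, so the split between such copies is uncertain.

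AGO2 clusters of the locus fell mainly on the miRNA genes, Meg3 and Rian. In wild type, 105 of the 177 clusters lay at miRNA genes, 71 on long RNAs (42 on Meg3 and 29 on Rian) and 1 at a small nucleolar RNA gene. In the knockout-labelled IP, 95 lay at miRNA genes, 112 on long RNAs (54 on Meg3, 49 on Rian and 9 on Mirg and B830012L14Rik) and 3 at small nucleolar RNA genes. A cluster counted as enriched when the authors' -log10 p and log2 over input both reached 3. In wild type 122 locus clusters (68.9%) were enriched, where 24.1% of all clusters were, and in the knockout-labelled IP 94 (44.8%) were, where 3.08% of all clusters were. The median log2 over input was 7.02 in the locus against 4.25 over all clusters in wild type, and 2.52 against 2.26 in the knockout-labelled IP. No cluster of either IP lay on the minus strand of the window, so Rtl1, the paternally expressed gene there, had none.

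**Figure D1:**
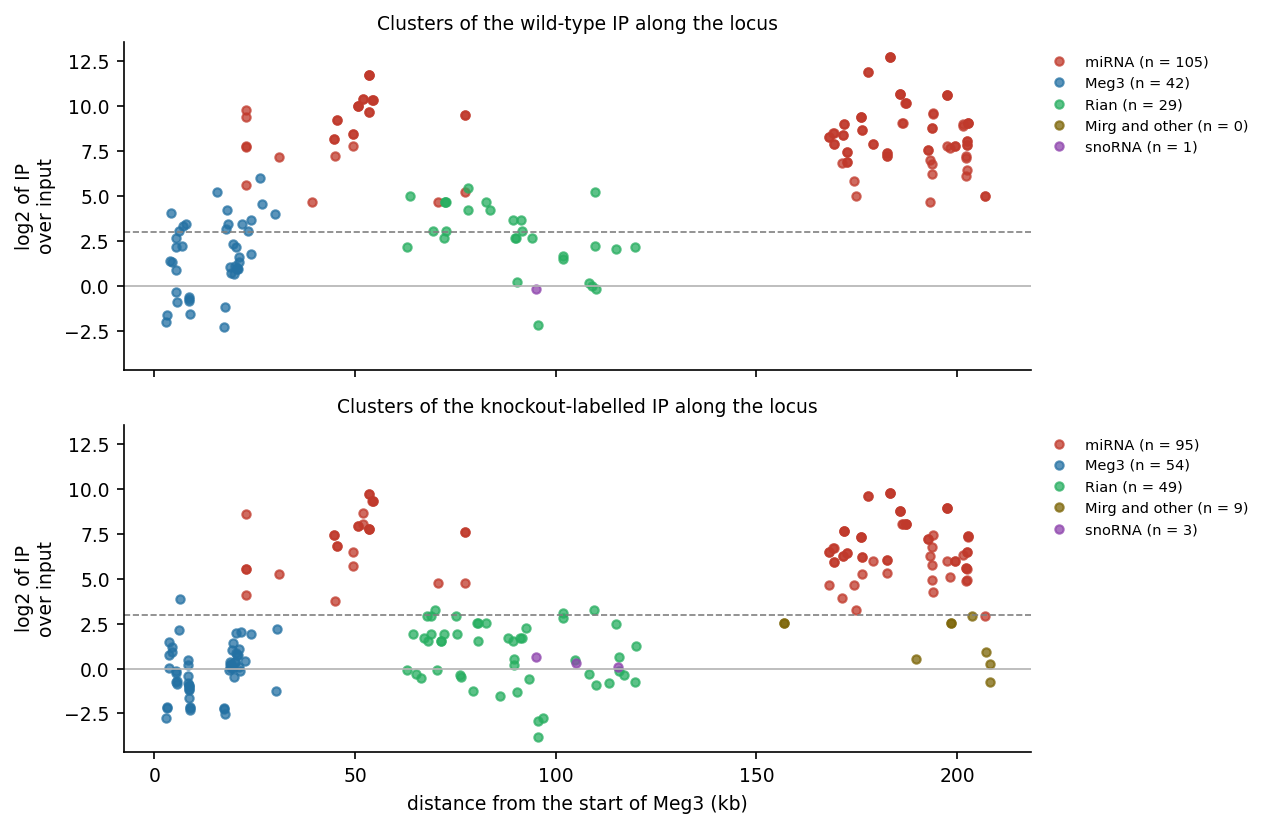
Log2 of IP over input for each cluster of the locus, by distance in kb from the start of Meg3, in the wild-type IP (top, 177 clusters) and the knockout-labelled IP (bottom, 210 clusters); colour gives the assigned gene class and the dashed line marks a log2 of 3. The miRNA clusters reach 12.74 (wild type) and 9.77 (knockout-labelled), and most of them stand above the clusters on Meg3 and Rian, many of which lie near or below 0.

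Of the 59 annotated miRNA genes, 43 had a region in at least 1 IP, 42 had one in both, and 16 had none. An enriched cluster was present at 41 genes in wild type and at 39 in the knockout-labelled IP. The median over genes of the log2 over input was 8.19 in wild type (interquartile range 7.22 to 9.45, 43 genes), where 269 miRNA genes outside the locus had 7.95 (5.83 to 9.40). In the knockout-labelled IP it was 6.32 (interquartile range 5.63 to 7.64, 42 genes), where the quartiles of 297 others were 3.26 and 7.12. Outside the locus, 237 of 269 miRNA genes had an enriched cluster in wild type and 194 of 297 in the knockout-labelled IP. Ranked by median log2, 3 locus genes were among the 20 highest of 312 miRNA genes in wild type and 2 among the 20 highest of 339 in the knockout-labelled IP.

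The levels over input cannot be set side by side between the libraries. The locus miRNAs had few input reads: 44 of 55 arms in wild type and 44 of 53 in the knockout-labelled pair had 0 in all their regions. The most in any region was 7 and at least 9, both on miR-770-5p. The authors' score adds 1 read to the denominator, so at 0 input reads it depends on IP reads and depth alone, and 1 IP read scores 2.66 in the wild-type pair but 0.94 in the knockout-labelled pair, a difference of 1.72. Over the 42 genes with both values, the wild-type log2 exceeded the other by a median of 1.93, with a range from -0.42 to 3.96. The ends of this range, Mir134 and Mir434, set medians over unlike arms against each other. On single arms, the wild-type and knockout-labelled log2 were 7.02 and 6.26 on miR-134-5p, and 11.74 and 9.68 on miR-434-3p. How much of the gap between the libraries reflects the input depth was not tested.

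The clusters traced the mature arms. In wild type 103 of 105 miRNA clusters overlapped a mature arm, and in the knockout-labelled IP 92 of 95 did. The exceptions include both regions of Mir487b in each IP, which held 172 and 139 IP reads and met no mature sequence of the RefSeq table. A region was found on 55 arms in wild type (21 5p and 34 3p) and on 53 in the knockout-labelled IP (19 and 34), and 51 arms had one in both. Many arms were split into abutting regions. Taken from the first start to the last end of the regions on an arm, both edges lay within 2 bases of the annotated ends at 41 of 55 arms and at 40 of 53. Arms with a wild-type region only were miR-493-5p, miR-329-5p, miR-134-3p and miR-412-5p, and those with a knockout-labelled region only were miR-379-3p and miR-543-5p. These 6 were named after their values were seen, and none held over 20 reads. Regions that abut on 1 arm share reads, so the reads given for an arm are those of its region with the most IP reads.

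The miRNAs opposite Rtl1 had the highest group median of log2 over input, at 10.36 (wild type) and 7.94 (knockout-labelled), with regions at 5 of 6 genes. Mir434 (chr12:109594506-109594599) led in wild type at a log2 of 11.74. Its 3p arm held 538 reads in the wild-type IP and 429 in the other, with 0 input reads in both, which is at least 1140-fold and at least 274-fold over an input floor of 3 reads. The 5p arm of the same hairpin held 260 and 229 reads. On miR-127-3p (Mir127, chr12:109592846-109592915), there were 424 wild-type and 416 knockout-labelled reads, each against 1 input read. The 5p arm of Mir136 (chr12:109595327-109595388) held 416 and 338 reads. For miR-433-3p the counts were 324 and 256. The lowest of the group was Mir431, whose 5p arm held 56 and 47 reads and whose 3p arm held 35 and 27. In each of these arms the wild-type count was the higher, although the wild-type IP was the shallower library.

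The array at and upstream of Mirg holds 39 of the 59 genes, and 30 of them had regions in each IP. Its median log2 over input was 8.06 in wild type, with a range from 4.99 to 12.74, and 6.29 in the knockout-labelled IP, with a range from 2.94 to 9.77. Mir300 (chr12:109724313-109724391) stood highest of the locus in both: its 3p arm held at least 1081 wild-type reads and at least 907 knockout-labelled reads. These are lower limits because a score at the authors' ceiling of 400 fixes only the ratio of the reads. Mir495 followed with at least 608 wild-type and 411 knockout-labelled reads on its 3p arm. Next by wild-type log2 came Mir381 (262 and 224 reads on the 3p arm), Mir154 (246 and 257 on the 5p arm) and Mir539 (185 and 136 on the 5p arm), all with 0 input reads. At the low end, miR-494-3p held 9 wild-type and 13 knockout-labelled reads, miR-1193-3p 5 and 5, and miR-3072-3p 5 and 4. Of the last pair, both were enriched in wild type and neither in the knockout-labelled IP. The 5 arms with the most wild-type reads together held 47.3% of the wild-type reads summed over arms, with miR-300-3p and miR-495-3p counted at their lower limits.

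The genes at or near Meg3 and Rian had fewer regions. Near Meg3, 6 of 9 genes had a wild-type region and 5 a knockout-labelled one, with medians of 7.52 and 5.53. Mir770, which lies in a Meg3 exon (chr12:109563692-109563785), held the most reads of the group, 279 in wild type and at least 243 in the knockout-labelled IP on its 5p arm. By gene median, Mir665 had the highest log2 over input of the group in wild type (9.25, from 96 reads). For the knockout-labelled IP it was Mir337 (7.41), and Mir665 had 6.82 from 59 reads. Single regions of Mir770 stood higher, at 9.79 from 279 reads (wild type) and 8.59 from 201 reads (knockout-labelled). The medians over all regions of Mir770 were 7.79 and 5.53. For miR-337-3p there were 92 and 89 reads, for miR-540-5p 24 and 21, and for miR-673-5p 23 and 20. Only wild type had a region at Mir493, with 4 reads, too few to be enriched.

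At or near Rian, regions were found at 2 of 5 miRNA genes, both in Rian introns. Mir370 (chr12:109618258-109618336) carried 115 wild-type and 102 knockout-labelled reads on its 3p arm. Mir341 (chr12:109611500-109611595) carried 4 and 14, and was enriched in the knockout-labelled IP only.

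In the authors' deposited table, which scores each wild-type region by the reads of the 2 IPs, the locus miRNAs were higher in wild type by a median log2 of 1.35 over 43 genes (interquartile range 1.22 to 1.52), and 42 of 43 lay above 0. In the same deposited table the 269 miRNA genes outside the locus had a median of 1.55 (1.19 to 1.99), and 259 lay above 0. With a -log10 p of at least 3 and a log2 of at least 1 as limits, 32 of 43 locus miRNA genes and 168 of 269 others had a region past them in the authors' deposited table, where 3.39% of all its regions were past them. Among its regions with at least 20 reads, 19.5% were past them. Both shares are by region, and by region 79 of the 105 at locus miRNA genes were past the limits. The authors' p compares the reads of 2 libraries, not the genotypes.

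On the scale of the authors' deposited table, equal read counts give a log2 of 1.19, because the knockout-labelled IP was the deeper. Summed over arms, at least 6479 wild-type reads stood against at least 5527 knockout-labelled reads, since miR-300-3p and miR-495-3p enter with lower limits. These counts give a log2 of 1.42 (interval 1.37 to 1.47). Of 55 arms, 53 lay above 0, 46 with an interval wholly above 0, and 39 lay above the equal-reads value. The exceptions below 0 were both in Rian: miR-341-3p, at -0.72 from 4 against 14 reads (interval -2.68 to 1.05), and miR-370-5p, at -0.13 from 6 against 14 (interval -1.70 to 1.44). Both intervals include 0. By group, the authors' deposited table gave medians of 1.48 opposite Rtl1, 1.34 near Meg3, 1.31 at Mirg and 0.32 over the 2 genes of Rian. The highest value of a gene was 3.19 at Mir493, from 4 reads against 0. Mir493 entered the authors' deposited table through its wild-type cluster alone, and miR-379-3p and miR-543-5p, with a knockout-labelled cluster alone, are not in it.

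**Figure D2:**
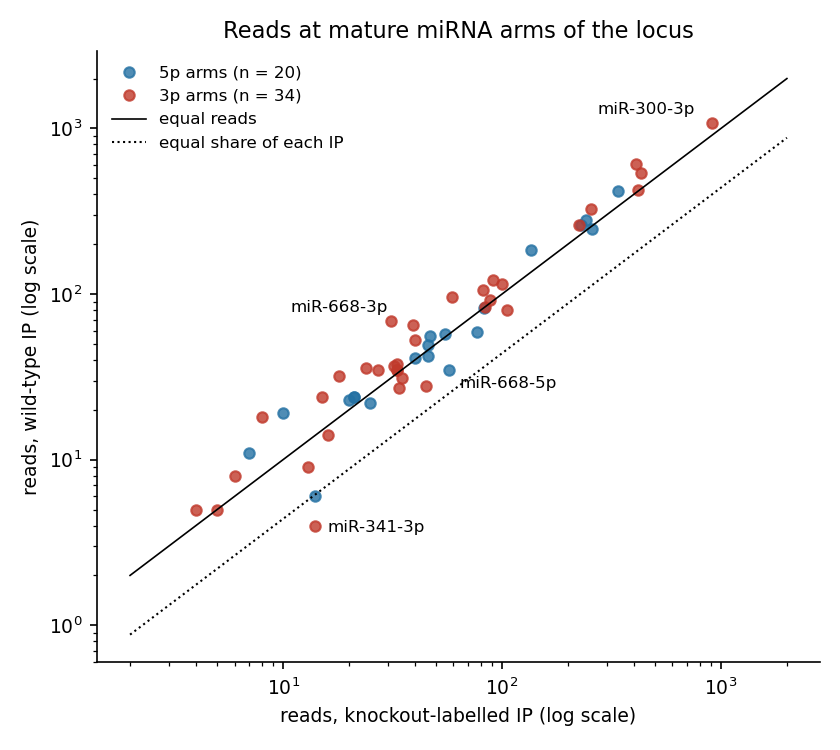
Reads of the wild-type IP (vertical) against those of the knockout-labelled IP (horizontal) at each mature arm with reads in both, on log scales; 5p arms are blue and 3p arms red, the solid line marks equal reads and the dotted line an equal share of each library. Most arms lie near or above the solid line, up to miR-300-3p with at least 1081 and 907 reads, and miR-341-3p lies below the dotted line with 4 and 14.

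Regions of other RNAs in the authors' deposited table gave the background for this shift. Its 3041 regions outside miRNA genes with at least 20 reads in both IPs together had a median log2 of 0.31, with quartiles of -0.42 and 0.97. All its regions together had a median of 2.77, which is the score that 3 wild-type reads against 0 give. Those regions are in the main clusters called in wild type, so the ones with few reads lean toward wild type by selection. Of these 46862 regions, 3561 held at least 20 reads. The locus miRNAs lay above the first of these medians and below the second (the median of 1.35 becomes 1.03 and -1.42). The second value is set largely by regions with few reads, so it is the weaker reference.

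Use of the 2 arms could be compared for 13 hairpins with reads on both. The share of reads on the 5p arm ranged from 5.0% at Mir370 to 90.0% at Mir770 in wild type. In the knockout-labelled IP it ranged from 12.3% at Mir370 to 88.6% at Mir154. For 12 of the 13 the intervals of the libraries overlapped. Mir434, the most deeply covered, had 32.6% (29.3 to 36.0) on its 5p arm in wild type and 34.8% (31.2 to 38.6) in the other.

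The exception was Mir668 (chr12:109734732-109734797), in an intron of Mirg. In wild type its 5p arm held 35 reads and its 3p arm 69, a 5p share of 33.7% (interval 24.7 to 43.6). In the knockout-labelled IP the counts were 57 and 31, a share of 64.8% (53.9 to 74.7). The order of the arms was thus opposite in the 2 libraries. In the authors' deposited table the log2 was 0.46 on the 5p arm (interval -0.17 to 1.12), while the interval of the 3p arm, from 69 against 31 reads, began at 1.71. The comparison of arm shares was added after the data had been seen, 13 hairpins were compared, and without replicates the spread between libraries of 1 genotype is unknown.

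**Figure D3:**
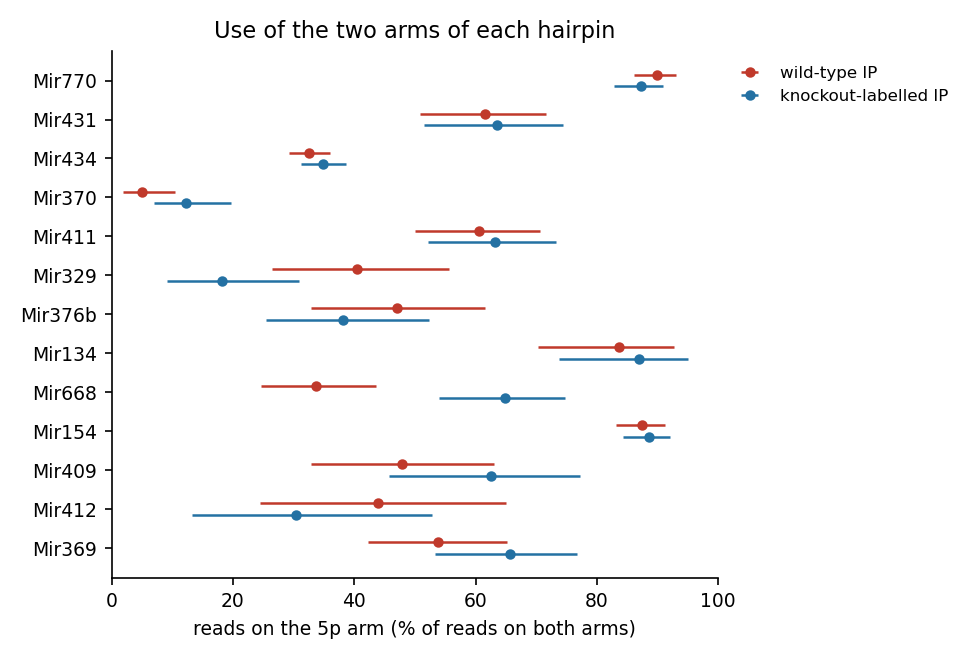
Share of reads on the 5p arm, in percent of reads on both arms, for the 13 hairpins with reads on both; points are the shares in the wild-type IP (red) and the knockout-labelled IP (blue), and bars are exact 95% binomial intervals. The bars overlap for 12 hairpins and are apart for Mir668, at 33.7% and 64.8%.

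Meg3, the maternally expressed long RNA at the head of the locus, was covered by many clusters. The share enriched was lower in the knockout-labelled IP than in wild type, as it was over all clusters. Wild type had 42 regions, 37 in exons, with a median log2 over input of 1.51; 14 were enriched (33.3%, where 24.1% of all wild-type clusters were) and 10 lay below 0, where 1.75% of all wild-type clusters did. The knockout-labelled IP had 54 regions with a median of 0.03; 1 was enriched (1.85%, where 3.08% of all were) and 26 lay below 0, where 10.4% of all clusters of that IP did. With limits of 5 and 4 in place of 3 and 3, the enriched Meg3 clusters were 3 and 0. The inputs were rich in Meg3 RNA, with a median of 26.0 input reads per wild-type region and at least 81.5 per knockout-labelled region, unlike the miRNA arms.

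The enriched regions of Meg3 with the most reads were modest. At chr12:109547023-109547102, in an intron, wild type had 32 IP and 23 input reads (log2 3.08), and the overlapping knockout-labelled cluster had 72 IP and 30 input reads (2.16). At chr12:109564262-109564333, in an exon, wild type had 34 IP and 25 input reads (log2 3.05). The authors' deposited table gave 7 knockout-labelled reads at that exonic region and a log2 of 3.28, one of only 2 Meg3 regions past its limits. The other was chr12:109567658-109567729, at 3.06 in the authors' deposited table from 11 against 2 reads. The Meg3 region with the most wild-type IP reads lay below input: chr12:109549674-109549810, in an exon, had at least 89 IP and 1685 input reads in wild type (log2 -1.58). These Meg3 regions were chosen after their values were seen.

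Rian, the host of the small nucleolar RNA genes, had 29 wild-type regions (5 enriched, median 2.66) and 49 knockout-labelled regions (1 enriched, median 1.52). The enriched shares were 17.2% and 2.04%, where 24.1% and 3.08% of all clusters were enriched. Rian regions held a median of 4 IP reads in wild type and at least 5 in the other, where all clusters held 4 in each. Mirg outside its miRNA genes had 0 wild-type regions and 7 knockout-labelled ones, and B830012L14Rik, an annotated gene between Rian and Mirg, had 2, none of these enriched. In a bulk tissue, fewer cells that express an RNA and less RNA per cell cannot be told apart.

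In the authors' deposited table the long RNAs did not share the level of the miRNAs. Over all 71 regions their median log2 was 0.37, with 2 past the limits and 27 below 0, where 6.22% of the whole deposited table of the authors lay below 0. The 35 regions with at least 20 reads had a median of -0.45 in the authors' deposited table, and 24 of them lay below 0, where 32.7% of all regions of that depth did. For Meg3 this was a median of -0.45 over 31 regions, 20 below 0, and for Rian -0.68 over 4 regions, all below 0. Among these 4, a pair abuts with the same counts, 4 against 18 reads (log2 -1.06 each), so they are not 4 separate values. With its regions of fewer reads included, the Rian median over all 29 regions was 1.77 in the authors' deposited table. These regions were called in wild type, and many held few reads, such as 4 against 0 (log2 3.19). Low counts chosen this way lean toward wild type, so that median gives no direction for Rian. The difference between the miRNAs and their neighbouring long RNAs was not tested, since the libraries have no replicates.

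**Figure D4:**
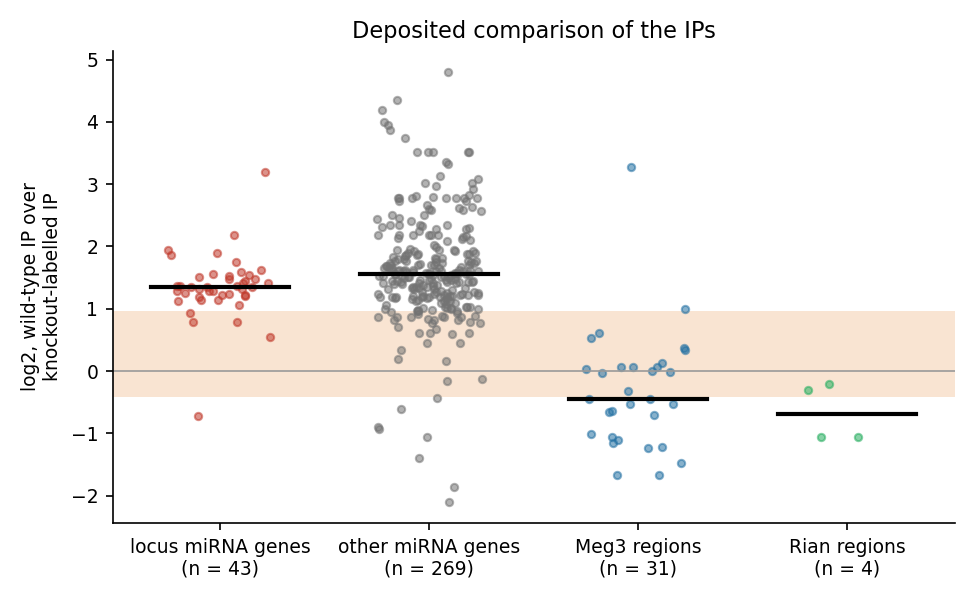
Log2 of the wild-type over the knockout-labelled IP in the authors' deposited table for the 43 locus miRNA genes, 269 miRNA genes elsewhere, and the Meg3 (31) and Rian (4) regions with at least 20 reads; points are genes or regions, black bars are medians, and the shaded band spans the quartiles (-0.42 to 0.97) of regions outside miRNA genes with at least 20 reads. Medians are 1.35 and 1.55 for the miRNA sets and -0.45 and -0.68 for Meg3 and Rian. Among the Rian regions, a pair abuts with the same counts.

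Small nucleolar RNAs, which guide chemical modification of other RNAs, had 1 wild-type cluster and 3 knockout-labelled clusters, none of them enriched. The shares over all clusters were 24.1% (wild type) and 3.08% (knockout-labelled). Counts this small cannot be told apart from those shares. Of 23 annotated genes in the locus, 3 had a region. AF357425 (ENSMUSG00000088294.1) had at least 4 IP and 27 input reads in wild type (log2 -0.14) and 18 and 21 in the knockout-labelled pair (0.65). Its value in the authors' deposited table was -1.06, with an interval that includes 0 (upper end 0.62). Gm24895 had 7 IP and 10 input reads and DQ267102 at least 5 and 8, both in the knockout-labelled IP only (0.29 and 0.09).

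The protein-coding genes of the surrounding domain carried between 0 and 13 AGO2 clusters each in an IP. Dlk1, the paternally expressed Notch-related ligand, had 1 cluster in wild type and 2 in the other. Dio3, which encodes a thyroid hormone deiodinase, had none in either. Begain had 10 and 10, Ppp2r5c 4 and 13, Wdr25 0 and 2, and Wars 6 and 7. Of all of these, only 2 of the 6 wild-type clusters of Wars were enriched. The whole wild-type list had 24.1% of its clusters enriched, and the whole knockout-labelled list had 3.08%. At the latter share, finding none among so few knockout-labelled clusters says little about these genes.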

How the data were processed

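AGO2 eCLIP libraries of newborn mouse brain were analysed from the deposited cluster lists. Per the labels' protocols, reads were trimmed with Cutadapt 1.15, freed of repeat reads and mapped to mm10 with STAR 2.6.0c, duplicates were removed with UMI tools (version given as 5.2), and clusters were called with CLIPper 1.4. Per cluster, the deposited files hold a -log10 p computed by the authors, capped at 400. They also hold the authors' log2 ratio of read densities, against input or against the other IP. How the comparison of the IPs was made is not given in the sources used here; since 172 of its 177 locus regions are exactly those of wild type, wild type was taken as the numerator.

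Reads were recovered from both scores as whole numbers at a fixed depth ratio, with a denominator of reads plus 1. This addition held at 85 of 89 regions with the same ends in the knockout-labelled list and the comparison, and was assumed for the inputs. Wild-type reads from both tables were equal at 125 of 125 locus regions. On counts simulated under the same model of the scores, at least 99.9% were recovered in each table. That checks the recovery step, not whether the authors' scores follow the model. A -log10 p of 0 or 400 fixes only a ratio, and such reads are given as "at least".

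Genes were scored by the median log2 over their regions. The genes named were Meg3, Rian and Mirg, small nucleolar RNA genes with a region, and in each of 4 miRNA groups the 5 highest and 3 lowest by wild-type log2 (all where 8 or fewer). Members and lists were chosen with earlier results of these data known. Computations used Python 3.11.15, scipy 1.17.1 and pandas 2.3.3. Alternatives covered limits, merging, assignment, centring and read minimum.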

Additional observations from a re-analysis of the deposited data

How the results depend on the processing

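No paired analysis was possible because each genotype has 1 library, and leaving out a library could not be run for the same reason. Merging abutting clusters lowered the enriched clusters of the locus from 122 to 74 in wild type and from 94 to 55 in the knockout-labelled IP. Stricter and looser limits kept the counts of enriched locus clusters and of miRNA genes with one within 1.5 times, as did assignment by midpoint for the genes. The long RNAs depended on the limits (alternatives added after the data had been seen): with limits of 5 and 4, enriched Meg3 clusters went from 14 to 3 in wild type and from 1 to 0 in the knockout-labelled IP, and Rian from 5 to 1 and from 1 to 0. With limits of 3 and 1, Meg3 had 21 and 8, and Rian 5 and 3. For the locus miRNA genes, the median log2 of wild type over knockout-labelled IP was 1.35, and 1.41 when the region with the highest -log10 p stood for each gene. It was 1.42 with reads summed over arms (an alternative added after the data had been seen), 1.03 centred on regions outside miRNA genes with at least 20 reads, and -1.42 centred on all regions. Most of all regions held fewer than 20 reads and were called in wild type, so the last value is a weak reference. For the long RNAs the median of 0.37 became 0.06 with the first centring and -0.45 over regions with at least 20 reads. The small nucleolar RNA value rests on 4 against 18 reads and kept its direction. Depth limits arms with few reads: 9 of 55 intervals include 0.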

Other observations

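The study's title names G-quadruplexes, and predicted ones (4 guanine runs, each 3 or longer, separated by no more than 7 bases, read on the RNA's strand and lying 50 bases or less from a cluster) were sought after the data had been seen. None lay at a miRNA cluster of the locus: 0 of 105 in wild type, with an exact upper limit of 3.45%, and 0 of 95 in the knockout-labelled IP, with an upper limit of 3.81%. Over all clusters the shares were 2.58% and 2.38%, inside both intervals. On Meg3, 4 of 42 wild-type clusters (9.52%, interval 2.66 to 22.6) and 2 of 54 knockout-labelled clusters (3.70%, interval 0.452 to 12.7) lay beside one. The wild-type Meg3 interval lies just above the share over all clusters, but abutting clusters can share 1 motif and Meg3 was looked at among several sets.

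Among the 16 miRNA genes with no region were close copies of covered ones. The 3p arm of Mir376a differs at 3 of 21 positions from miR-376b-3p, which held 27 wild-type and 34 knockout-labelled reads.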
